A study of Oncorhynchus kisutch with 206 samples.

Results

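The 100 array features described here had higher brain levels in each of 4 sea stages of coho salmon than in either of 2 river stages. They were chosen from the deposited values by a rule. Among the 43630 features of the array, 10942 had a value on all 206 arrays. For each of these a gap was taken as the lowest of the spring, summer, fall and winter means minus the higher of the parr and smolt means. The gap was above 0 in 1079 features, which is 9.86% of those with a value on all arrays, and the 100 with the largest gaps were kept. Stage means therefore selected the members, so every difference between river and sea stages below is a description without a test. Tests were kept for contrasts within a stage or within the sea.

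Coho salmon hatch in rivers, live there as parr, and become smolts before they migrate to sea. Smolting is a hormonally driven change of behaviour, body form and salt balance, in which the brain takes part through the pituitary, through the reading of day length and through imprinting on river odour. At sea the fish feed, grow quickly and begin the path towards maturation. The files name features by their column and row on the array and do not pair them with genes, so no gene, pathway or sequence is named for any member. For the same reason the tissue label could not be checked against brain markers, and the other cell types that a dissected brain can hold could not be looked for.

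Each array held the amplified brain RNA of 1 fish, labelled with Alexa 555, beside a reference pooled from all samples of the tissue and labelled with Alexa 647. No array had the dyes swapped. The deposited value is a log ratio whose base and direction the labels do not state. It was read as log2 of fish over pool, so 0 is the level of the pool and a difference of 1 is a doubling. The log2 of the mean back-transformed ratio over 10 classes of features by variance ranged from 0.06 to 0.17 under this reading. Turned the other way it ranged from -0.02 to 1.10, so fish over pool is the likely direction but is not settled by the labels. Were it the other way, every member would be lower at sea.

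All 5 parr were of hatchery origin and came from the Chilliwack in 2008. The 51 smolts were caught in rivers, 33 of them from hatcheries and 18 of wild origin. Of these, 16 came from the Chilliwack in 2008, and in 2009 10 came from the Capilano, 8 from the Chehalis, 8 from the Puntledge and 9 from the Salmon river. The 12 spring fish were wild and came from the southern Strait of Georgia in 2009. The 51 summer fish, 28 of them wild, comprised 8 from the Strait in 2008, 35 from the Strait in 2009 and 8 from the west coast of Vancouver Island in 2009. The 78 fall fish, 47 of them wild, comprised 11 from the Strait and 17 from the west coast in 2008, and 43 and 7 in 2009. The 9 winter fish of 2009, 5 of them wild, comprised 3 from the Strait and 6 from the west coast. Those of the Strait were all wild and had the stock label Fraser, and those of the west coast had Puget_Sound or North. The stock labels over all fish were Chilliwack_R, Columbia, ECVI, Fraser, North, Oregon, Puget_Sound, S_Main and Washington, and fish 796 had none. Parr and the Chilliwack smolts were sampled only in 2008, and spring and winter fish only in 2009, so stage and year were partly joined. Mean fork length was 5.06 cm in parr and 34.5 cm in winter fish, so stage also went with size.

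Between 16.6% and 57.6% of the values were empty on an array, and the SD of an array's values ranged from 0.51 to 1.61. The correlation between arrays over features had a median of 0.24 and extremes of -0.49 and 0.92, and it was below -0.3 in 1.12% of 21115 pairs. All arrays had the same dyes by the labels, so 1 direction was kept for all. The 206 arrays lay on 61 slides, and 23 slides held both river and sea fish.

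The largest gap was 1.18 in the feature C032R093, a 2.26-fold difference on the log2 reading, and the next was 0.91 in C205R085. The median gap of the members was 0.47 and 38 of 100 had a gap of at least 0.5. The values just inside the limit were 0.3771 for C034R073 and 0.3761 for C196R123, a 1.30-fold difference. Just outside it, C021R100 had 0.3759 and C026R164 had 0.3720. The limit therefore cut through features with near-equal gaps. Of the mirrored rule, for features lower at every sea stage, the largest gap was 1.10 and the gap at rank 100 was 0.33. More features met the mirrored rule, 1519 or 13.9% of those with a value on all arrays.

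In C032R093 the 5 parr had -1.65, -1.40, -1.20, -1.08 and -1.06. The 51 smolts ran from -3.26 through a median of -0.98 to 0.65. In the 12 spring fish the lowest value was -0.46, the median -0.01 and the highest 0.71. Every parr was therefore below every spring fish, whereas the smolts reached into the spring range. C032R093 was picked for its gap, and the share of all features without such overlap was not counted. The parr were hatchery fish of 2008 and the spring fish wild fish of 2009, so year and origin differed too. The 51 summer fish ran from -3.29 through 0.18 to 2.01, and the 78 fall fish from -2.98 through 0.52 to 3.30. The 9 winter fish ran from -1.66 through 0.81 to 1.83. Of 150 sea fish, 137 were above the median of the 56 river fish, and 48 were above every river fish.

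The second feature, C205R085, had the cleanest separation of river from sea of those named here, and another order of the sea stage means. Its 5 parr had -2.67, -2.23, -2.10, -1.29 and -0.36, and its smolts ran from -2.32 through -1.39 to 1.01. Spring fish ran from -0.68 through 0.26 to 1.90 and summer fish from -1.89 through 0.55 to 3.62. Fall fish ran from -1.44 through 0.03 to 1.77 and winter fish from -1.10 through -0.37 to 0.43. The stage mean was thus highest in summer, at 0.76 ± 1.09 (SD, n = 51), and lowest at sea in winter, at -0.34 ± 0.50 (SD, n = 9). The high summer mean rested on the 8 summer fish of 2008, with a mean of 2.59. In Strait fish of 2009 the mean was 0.38 in spring, 0.46 in summer, 0.49 in fall and 0.11 in winter, and it was -0.56 in the west coast fish of winter. A sea fish was above a river fish in 92.4% of all such pairs, and 148 of 150 sea fish were above the river median.

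**Figure D1:**
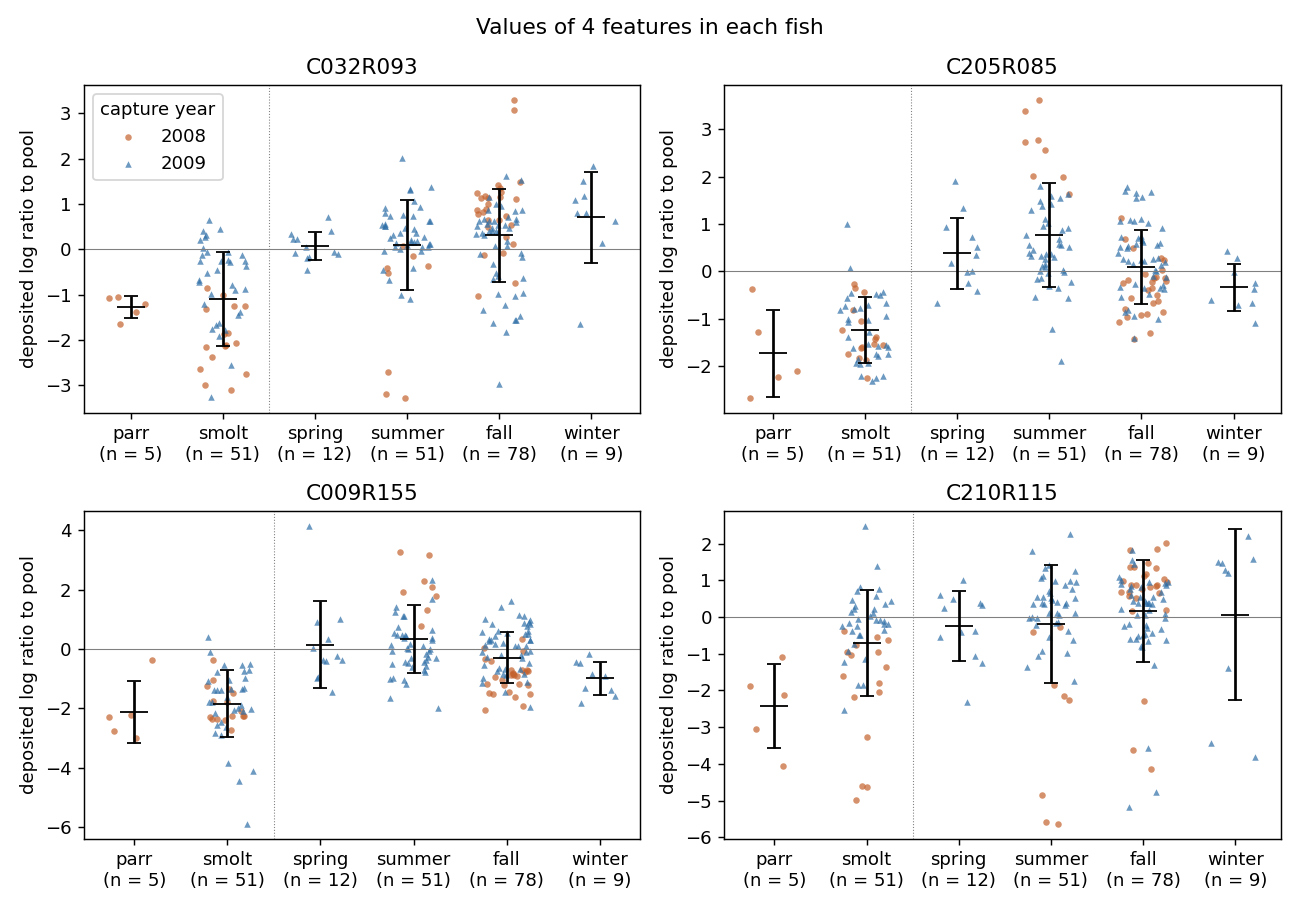
Deposited log ratio to the pool (vertical axes) by stage (horizontal axes) for 4 of the 100 features, 1 point a fish, coloured by capture year, with the mean and SD of each stage. In C205R085 and C009R155 the summer means are the highest and include the high fish of 2008, without which, in Strait fish of 2009, summer has 0.46 and 0.15 and fall 0.49 and 0.20, and in C210R115 single fish lie as low as -5.63 in summer and -5.16 in fall.

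The members did not separate individual fish. In 0 of 100 were all sea fish above all river fish. The share of pairs of 1 sea and 1 river fish in which the sea fish was higher ran from 60.3% through a median of 78.3% to 93.6%. The SD among fish of 1 stage, year and place had a median of 0.79 over the members and 0.59 over all features with a value on all arrays, and the gap was larger than this SD in 9 members. A bulk sample cannot tell more cells of a type from more RNA per cell.

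Averaged over the 100 members and over all fish of a stage, the level was higher at each following stage. It was -1.31 ± 0.13 (SD, n = 5) in parr, -0.76 ± 0.39 (SD, n = 51) in smolts and -0.18 ± 0.27 (SD, n = 12) in spring. It was -0.01 ± 0.38 (SD, n = 51) in summer, 0.18 ± 0.43 (SD, n = 78) in fall and 0.38 ± 0.51 (SD, n = 9) in winter. Neighbouring sea stages differed by less than 1 SD of either, while spring and smolt differed by more. The order of the sea stages depended on the places and years sampled. In Strait fish of 2009 alone the mean was -0.18 ± 0.27 (SD, n = 12) in spring, 0.12 ± 0.26 (SD, n = 35) in summer, 0.02 ± 0.38 (SD, n = 43) in fall and -0.12 ± 0.52 (SD, n = 3) in winter, so it was no higher after summer. All 12 spring fish were of the southern Strait. Summer fish of 2009 had -0.20 ± 0.22 (SD, n = 6) there and 0.18 ± 0.22 (SD, n = 29) in the northern and middle Strait. Within the southern Strait the mean was thus no higher in summer than in spring. The 6 winter fish of the west coast had 0.63 ± 0.29 (SD). By the mean over members, 111 of 150 sea fish were above the highest river fish, at -0.13, and 6 sea fish were below the river median.

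**Figure D2:**
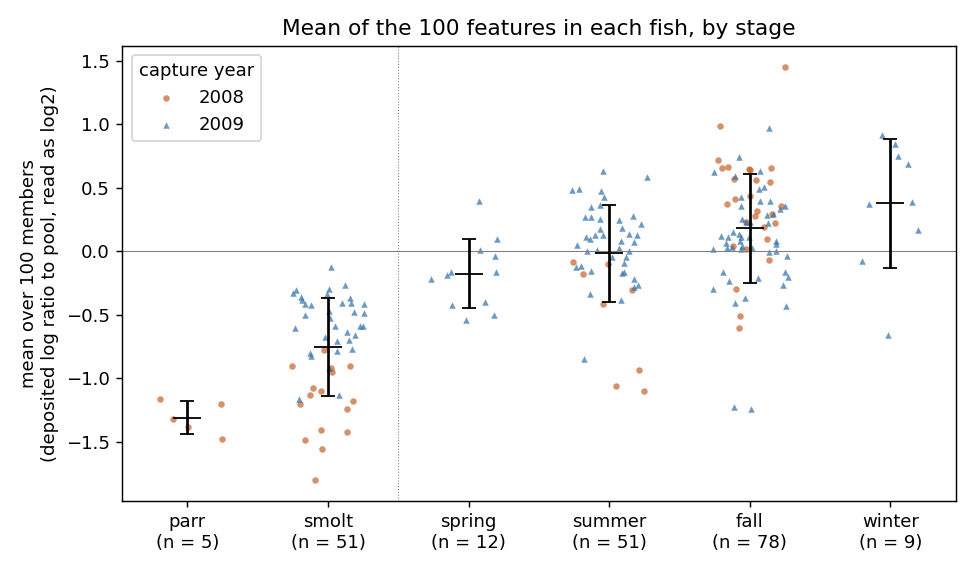
Mean over the 100 features in each of 206 fish (vertical axis, log ratio to the pool) by stage (horizontal axis), coloured by capture year, with the mean and SD of each stage. The highest river fish is at -0.13, and the stage means run from -1.31 in parr to 0.38 in winter.

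The rule compared only the lowest sea mean with the higher river mean and set no order within either. Smolts had the higher river mean in 95 members and parr in 5. Spring had the lowest sea mean in 60 members, summer in 22, winter in 12 and fall in 6. Winter had the highest sea mean in 70, fall in 21, summer in 6 and spring in 3. The largest single step was from smolt to spring in 46 members and from parr to smolt in 37, and 17 had it later. In 39 members the mean was higher after each of the 5 steps, as it was in 2.60% of all features with a value on all arrays. Any feature with such a course has a gap above 0, so nothing is read from this difference. The range among the 4 sea means was larger than the gap in 58 members. Crossing the level of the pool was not general, since 35 members had both river means below 0 and all sea means above 0.

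Members also differed in what happened before and after sea entry. The largest differences upward from parr to smolt were in C228R104, from -3.13 ± 0.48 (SD, n = 5) to -1.39 ± 1.02 (SD, n = 51), and in C210R115, from -2.43 ± 1.14 (SD, n = 5) to -0.71 ± 1.43 (SD, n = 51). Smolts of the same river and year as the parr, however, had a mean of -1.98 in C210R115, and the smolts of 2009 had -0.46 to 0.15 by river. In C228R104 the Chilliwack smolts of 2008 had -1.36. At the other end C046R005 had -0.40 ± 0.35 (SD, n = 5) in parr and -0.44 ± 1.00 (SD, n = 51) in smolts. C043R167 had -0.46 ± 0.50 (SD, n = 5) and -0.49 ± 0.80 (SD, n = 51). These last 2 differed little between the river stages and had spring means of 0.18 and 0.19.

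The largest difference upward from spring to winter was in C063R092, from -1.93 ± 1.96 (SD, n = 12) to 0.60 ± 3.03 (SD, n = 9). In C050R100 the mean went from -1.35 ± 0.32 (SD, n = 12) to 0.78 ± 0.53 (SD, n = 9). The 9 winter values of C050R100, at 0.01 to 1.30, were all above the 12 spring values, at -2.23 to -0.87, whereas those of C063R092 overlapped. C050R100 was picked for this difference, and the share of all features without overlap was not counted. All spring fish were of the Strait. The winter mean of C050R100 was 0.40 in the Strait and 0.97 off the west coast, and that of C063R092 was -0.20 and 1.01. Opposite courses were seen in C009R155, from 0.14 ± 1.46 (SD, n = 12) in spring to -0.99 ± 0.57 (SD, n = 9) in winter, and in C205R085. The spring values of C009R155 had a median of -0.30 and a highest value of 4.16. Its winter mean was -0.67 in the Strait and -1.15 off the west coast.

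Fish of 1 group differed most in C064R078 and C063R092, whose within-group SDs were 2.13 and 2.10. Smolts ran from -4.84 to 1.51 in C064R078, and winter fish from -4.38 to 3.97. In C063R092 smolts ran from -5.15 to 1.13 and winter fish from -4.12 to 4.49. The features went together from fish to fish, with a correlation of 0.96 over 206 fish once group means were removed. The steadiest members were C013R028, with a within-group SD of 0.44, and C048R078, with 0.49. In C013R028 the smolt mean was -0.38 ± 0.51 (SD, n = 51) and the spring mean -0.002 ± 0.38 (SD, n = 12), so the step was below the smolt SD and near the spring SD. In C048R078 the step was 0.41, beside SDs of 0.61 in smolts and 0.40 in spring.

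The river-to-sea difference was then set against year, size, stock and slide, in subsets that keep each of these nearly fixed. Since the members were chosen on all these fish, the values are descriptions. In 2009 alone the spring fish exceeded the smolts by 0.38 in the mean over members, and 96 of 100 members were higher, as were 44.8% of all features with a value on all arrays. Against the 12 wild smolts of 2009 the spring fish exceeded by 0.29, with 79 members higher. Of all features with a value on all arrays, 42.5% were higher in this contrast. Fork lengths were alike in spring fish, at 11.5 cm, and in all smolts of 2009, at 11.3 cm. The wild smolts of 2009 were shorter, at 10.2 cm. The 14 sea fish no longer than the longest smolt, at 13.4 cm, of which 12 were spring fish, exceeded all smolts by 0.52, with 100 members higher. The share of all features with a value on all arrays was 43.9%. Since the rule set each spring mean above the mean of all smolts, the count of 100 was nearly fixed in advance. These smolts were of both years, so year was not held in this subset.

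By stock group, sea fish of 2009 labelled ECVI exceeded river fish of that label by 0.52, with 82 members higher. For the label Fraser the difference was 0.57 with 97 higher, and for S_Main 0.66 with 84 higher. The shares of all features with a value on all arrays that were higher were 44.2%, 42.5% and 48.6%. Within the 23 slides that held both kinds, 36 river and 46 sea fish, all 100 members were higher at sea, and the mean over members was higher at sea on 23 of 23 slides. The median member differed by 0.64 within slides and by 0.86 over all fish. Of all features with a value on all arrays, 45.4% were higher at sea within slides.

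In 2008 the subsets differed widely. The 4 sea fish of that year labelled Chilliwack_R exceeded the Chilliwack smolts by 1.69, with 100 members higher, against 49.4% of all features with a value on all arrays. Chilliwack hatchery smolts of 2008 exceeded parr of the same river, hatchery origin and year by 0.12, with 60 members higher, against 52.1% of all features with a value on all arrays. The wider difference between all smolts and parr therefore held a difference between smolts of 2008, at -1.19 ± 0.28 (SD, n = 16), and of 2009, at -0.56 ± 0.23 (SD, n = 35), which were also of different rivers. Summer fish of the Strait in 2008 had -0.52 ± 0.44 (SD, n = 8), which is 0.03 above the smolts of 2009, with 53 members higher, but 0.67 above the smolts of 2008, with 84 higher. The shares of all features with a value on all arrays that were higher were 46.2% and 44.1%. Year and river cannot be told apart in the smolts.

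Dividing the fish by stage, year and place gave 6 river and 10 sea groups, with the 2 parts of the Strait as 1 place. In 17 members every sea group mean was above every river group mean, as in 0.393% of all features with a value on all arrays; the rule used the same values, so nothing is read from the difference. C205R085, C009R155, C228R104, C013R028 and C048R078 were among these 17, and C032R093 was not. The narrowest named case was C048R078, with -0.208 in the summer fish of 2008 against -0.211 in the smolts of the Salmon river.

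On the array the members lay unevenly. Cut into 3 equal runs, the 266 columns held 46, 23 and 31 members, against 33.6%, 35.7% and 30.7% of all features with a value on all arrays, and the 170 rows held 31, 38 and 31. Only 1 pair of members touched, with a correlation of 0.30 within groups. Whether position has a part in the members' values was not tested.

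Members shared only part of their variation among fish of 1 group. With the means of stage, year and place removed, the correlation between 2 members had a median of 0.10 over 4950 pairs, and 0.02 over all pairs of features with a value on all arrays. It was above 0.8 in 8 pairs, which drew on 12 members, or 0.16% of member pairs against 0.07% of all pairs. It was below -0.3 in 114 pairs, or 2.30% against 7.54%. All these points shared arrays. Clustering on these correlations, made after the values were seen, gave 33 features in block 1, led by C205R085 and C009R155, and 67 in block 2, led by C032R093. The blocks are used for description only, and the correlation of their means among fish was -0.20.

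The blocks differed by year. In block 1 smolts had -0.91 ± 0.32 (SD, n = 16) in 2008 and -0.81 ± 0.31 (SD, n = 35) in 2009, and summer fish of the Strait had 0.27 ± 0.28 (SD, n = 8) and 0.04 ± 0.28 (SD, n = 35). In block 2 the smolts had -1.33 ± 0.50 (SD, n = 16) in 2008 and -0.43 ± 0.31 (SD, n = 35) in 2009. Summer fish of the Strait had -0.91 ± 0.74 (SD, n = 8) and 0.15 ± 0.36 (SD, n = 35). Those of 2008 ran from -1.96 to -0.11 in block 2. Within each year the smolts thus lay below the summer fish of the Strait in both blocks. Across years, the summer fish of 2008 lay above the smolts of 2009 in block 1 and below them in block 2.

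**Figure D3:**
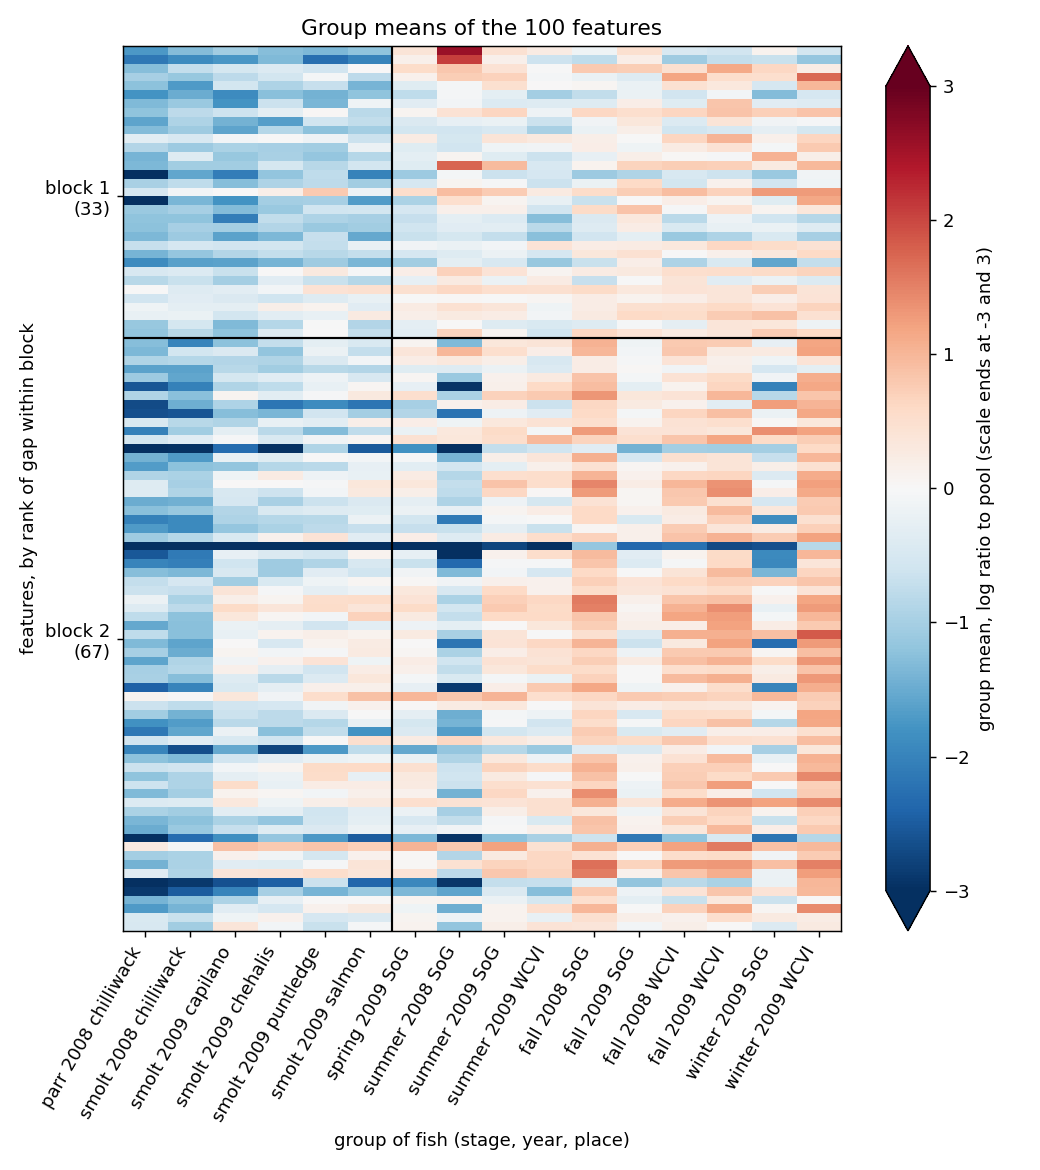
Mean log ratio to the pool (colour) of the 100 features (rows, by block and rank of gap) in 16 groups of fish (columns), with river groups left of the vertical line. In block 2 the summer 2008 column is low, with a block mean of -0.91, where block 1 has 0.27.

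The spread of the array went with the members. Among fish of 1 stage, year and place the mean over members had a correlation of -0.56 with the SD of the array (n = 206), which was -0.40 in smolts, -0.56 in summer and -0.68 in fall fish. The correlation was -0.60 for block 2 and 0.16 for block 1, and 0.11 for the 100 features of the mirrored rule. Arrays of the summer fish of 2008 had a mean SD of 0.98, with single arrays from 0.59 to 1.41. Those of Strait summer fish in 2009 had a mean SD of 0.74. Smolts had 0.82, spring fish 0.76, fall fish 0.83 and winter fish 0.90. With the share of empty values the correlation was -0.18, and with fork length it was 0.24. What part the spread of the arrays has in the members' values was not tested, except by the settings given below.

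**Figure D4:**
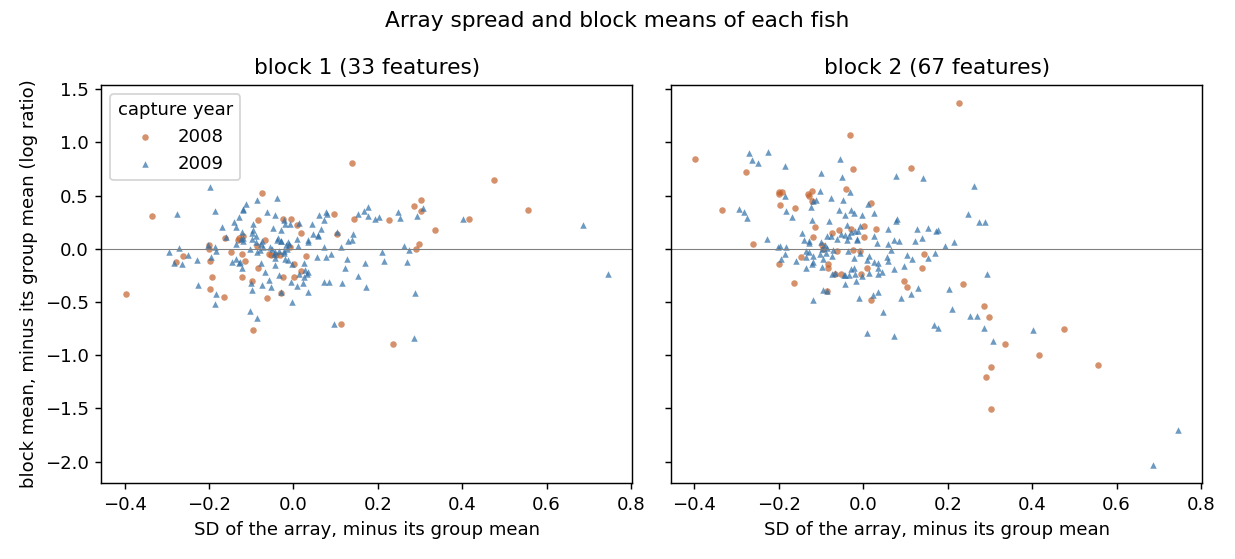
Block mean of each of 206 fish minus the mean of its group (vertical axes, log ratio) against the SD of its array minus the mean of its group (horizontal axes), by capture year. The correlation is -0.60 in block 2, whose lowest points lie at the right, and 0.16 in block 1.

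The tests asked which attributes of fish at the same stage went with a member's level. Each was fitted with limma to all features that had enough values, with slide as a random block, and p-values were adjusted by Benjamini-Hochberg over all features tested. A feature passed where the adjusted p was under 0.05.

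Origin moved no member past the threshold. Among smolts, 18 wild against 33 hatchery fish with river as a term, 0 of 100 members passed, as did 0% of 33709 features tested. Only the Chilliwack, with 6 wild and 10 hatchery smolts, and the Capilano, with 3 and 7, held both origins. Smolts of the Chehalis and Puntledge were all from hatcheries and those of the Salmon river all wild. With river as a term the contrast therefore rested on the Chilliwack and Capilano fish. At an unadjusted p under 0.05 there were 8 members and 2684 features. Among summer, fall and winter fish, 80 wild against 58 hatchery, 0 of 100 members passed and 0% of 37554 features, with 23 members and 4093 features at an unadjusted p under 0.05. Of features with a value on all arrays, 14.2% were under it. The median member was 0.13 higher in wild sea fish, and 76 of 100 were above 0. Over all features with a value on all arrays the median was 0.015 and 54.3% were above 0. The members' median was 0.25 in block 2 and -0.01 in block 1. It was 0.08 with quantile normalization.

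Sex did not either. With 64 males and 64 females at sea, 0 of 100 members passed, and 0% of 37919 features, with 2 members and 3.50% of features at an unadjusted p under 0.05. Among the 4 rivers of 2009, 0 of 100 members passed, against 0.00346% of 28864 features, and 22 members were at an unadjusted p under 0.05, against 8.55% of all features tested and 10.9% of those with a value on all arrays. The fit among rivers held no term for origin, which was partly joined with river. The mean over members ran from -0.70 ± 0.23 (SD, n = 10) in the Capilano and -0.63 ± 0.25 (SD, n = 8) in the Chehalis to -0.44 ± 0.14 (SD, n = 8) in the Puntledge and -0.43 ± 0.20 (SD, n = 9) in the Salmon river, with ranges that overlapped.

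Body length within a stage moved no member past the threshold. The slope on fork length passed in 0 of 100 members in smolts and in 0% of 33775 features. In summer fish it passed in 0 of 100 members and 0% of 33894 features. In fall fish it passed in 0 of 100 members and 0.266% of 33872 features. The counts at an unadjusted p under 0.05 were 10, 11 and 17 members. The shares of features with a value on all arrays were 5.96%, 8.85% and 13.7%. The median slope of the members was -0.02 per cm in smolts, 0.05 per cm in summer and 0.02 per cm in fall, and the slope was above 0 in 43, 85 and 79 members. Of all features with a value on all arrays, 54.3%, 57.9% and 48.7% had a slope above 0.

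Coast moved more members than the other attributes tested alone. It compared 38 fish of the west coast with 100 of the Strait over the sea stages after spring. In summer 2008 only Strait fish were sampled. Those 8 fish had no west coast counterpart, though the pooled ranges below include them. The fit held a term for each combination of stage and year, but none for stock, origin or length. Fish of these stages labelled Columbia, Oregon, Puget_Sound or Washington all came from the west coast. In fall 2009 mean fork length was 29.4 cm off the west coast and 24.3 cm in the Strait. Coast was thus partly joined with stock and length, whose parts in the coast differences were not tested. Of 100 members 3 were higher off the west coast, against 3.14% of all features tested and 6.42% of those with a value on all arrays, and 10 were lower, against 7.18% and 14.3%. These shares are near the background, and the members are features with a value on all arrays. This split moved with the processing. It was 10 higher and 10 lower with quantile normalization, 11 and 12 with only features that had a value on every array, 20 and 10 with array quality terms, and 0 and 4 with slide as a fixed term. The shares of all features tested that passed were 11.6%, 26.9%, 16.6% and 4.15% in that order, against 10.3% as fitted here. In that fit block 1 held 10 of the 13, of which 9 were lower. The median change of the members was 0.14 and 68 of 100 were above 0, against 0.005 and 50.6% over all features with a value on all arrays.

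Among the 10 that passed as lower, the largest fall was in C009R155. Its values ran from -2.07 through a median of -0.90 to 1.15 in the 38 west coast fish. They ran from -1.98 through 0.12 to 3.27 in the 100 Strait fish, and the 3.27 was in a summer fish of 2008. The change was -0.68 (SE 0.15; limma, adjusted p = 0.000742). In fall 2009 the mean was -0.72 ± 0.93 (SD, n = 7) off the west coast and 0.20 ± 0.67 (SD, n = 43) in the Strait, and in winter -1.15 ± 0.51 (SD, n = 6) and -0.67 ± 0.63 (SD, n = 3). The west coast was lower in all 4 combinations of stage and year that held both.

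Next among the falls was C017R040, which changed by -0.58 (SE 0.17; limma, adjusted p = 0.0149). It ran from -3.87 through -0.74 to 0.81 off the west coast and from -5.41 through -0.02 to 1.83 in the Strait. Among the 3 members that passed as higher, the largest rises were in C063R026, by 0.42 (SE 0.12; limma, adjusted p = 0.0138), and in C204R164, by 0.42 (SE 0.13; limma, adjusted p = 0.0232). C063R026 ran from -0.24 through 0.44 to 2.66 off the west coast and from -2.10 through 0.10 to 1.36 in the Strait. C204R164 ran from -0.30 through 0.91 to 1.82 and from -2.42 through 0.34 to 1.66. In summer 2009 C063R026 was not higher off the west coast, with 0.30 ± 0.40 (SD, n = 8) against 0.39 ± 0.67 (SD, n = 35) in the Strait. The coasts overlapped in all 4 features, and with slide as a fixed term C009R155 alone of the 4 still passed.

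Year, 93 fish of 2009 against 36 of 2008 over summer and fall with stage and place as terms, moved 1 of 100 members, against 2.65% of all features tested. The member was C262R082, which changed by -0.68 (SE 0.18; limma, adjusted p = 0.0236), and of the features with a value on all arrays 1.01% were lower in 2009. In the Strait it had 0.99 ± 0.82 (SD, n = 8) in summer 2008, 0.49 ± 0.79 (SD, n = 35) in summer 2009, 0.99 ± 0.98 (SD, n = 11) in fall 2008 and -0.08 ± 0.86 (SD, n = 43) in fall 2009. With slide as a fixed term the change was -0.14 (limma, adjusted p = 0.881).

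A single year term hid opposite changes in the 2 seasons among Strait fish. The mean over members in the Strait went from -0.52 ± 0.44 (SD, n = 8) in summer 2008 to 0.12 ± 0.26 (SD, n = 35) in summer 2009, and from 0.45 ± 0.39 (SD, n = 11) in fall 2008 to 0.02 ± 0.38 (SD, n = 43) in fall 2009. A term for this difference was tested after these means had been seen, so its count is not independent of them. The fit also held a term for the southern part of the Strait. All 11 fall fish of 2008 were of the northern and middle part, where fall 2009 had 0.06 ± 0.36 (SD, n = 21). In Strait fish the year change in summer minus that in fall passed in 50 of 100 members. It was higher in 43, against 14.1% of all features tested and 18.9% of those with a value on all arrays, and lower in 7, against 11% and 8.01%. Of the 50, block 2 held 41 and block 1 held 9. All 43 were higher in 2009 in summer and lower in 2009 in fall, and all 7 were the reverse. The median year change of all 100 members was 0.38 in summer and -0.43 in fall. Among the 50, which the same difference selected, it was 1.29 and -0.89. Off the west coast, which this term left out, the mean over members was not lower in fall 2009. It was 0.29 ± 0.45 (SD, n = 17) in fall 2008 and 0.48 ± 0.31 (SD, n = 7) in fall 2009.

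**Figure D5:**
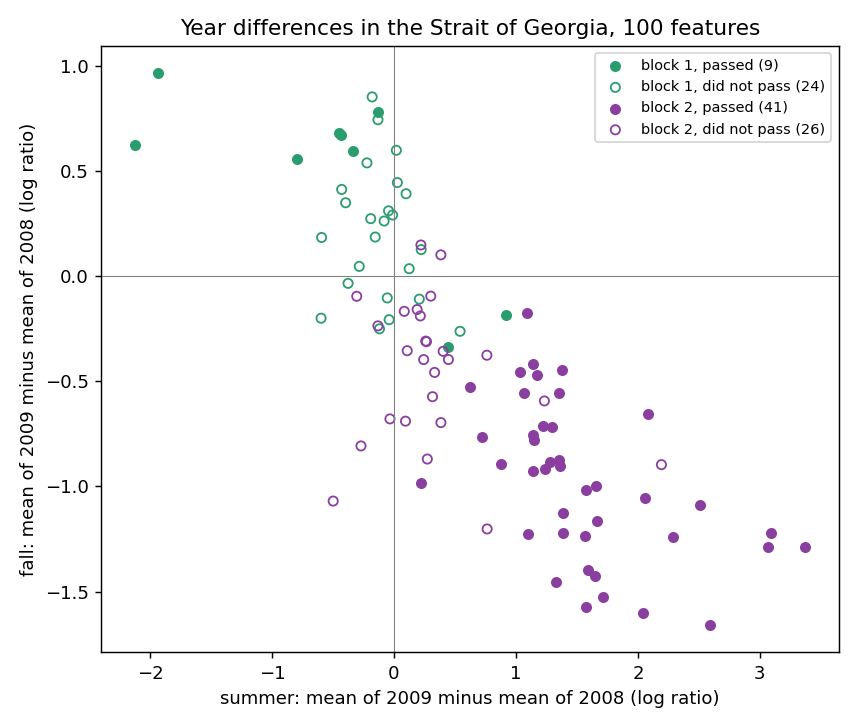
Mean of 2009 minus mean of 2008 in fall (vertical axis) against the same in summer (horizontal axis), in log ratio, for the 100 features in fish of the Strait of Georgia. Filled points are the 50 that passed the test of the difference, of which 41 are in block 2 and 9 in block 1.

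Among the members that passed, the largest difference was in C027R097, by 4.15 (SE 0.69; limma, adjusted p = 2.98e-05), and the next in C210R115, by 3.79 (SE 0.66; limma, adjusted p = 5.51e-05). In C027R097 the 8 summer fish of 2008 ran from -6.97 through -2.31 to -0.31 and the 35 of 2009 from -1.57 through 0.17 to 2.28. The 11 fall fish of 2008 ran from 0.54 through 0.82 to 1.93 and the 43 of 2009 from -5.25 through -0.05 to 2.12. C210R115 had -2.87 ± 2.19 (SD, n = 8) and 0.20 ± 0.83 (SD, n = 35) in the summers and 1.16 ± 0.45 (SD, n = 11) and -0.13 ± 1.39 (SD, n = 43) in the falls. The 2 features varied together among fish of 1 group, with a correlation of 0.84 over 206 fish, so they count as little more than 1 observation. With the share of empty values and the SD of the array as terms the differences were 2.35 and 2.13 (limma, adjusted p = 0.00268 and 0.00408).

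In the other direction stood C009R155, by -2.84 (SE 0.41; limma, adjusted p = 1.84e-06), and C205R085, by -2.54 (SE 0.40; limma, adjusted p = 1.18e-05). C205R085 ran from 1.63 through 2.64 to 3.62 in the 8 summer fish of 2008 and from -1.89 through 0.38 to 1.79 in the 35 of 2009, so the years overlapped only at the edge. In fall it ran from -1.30 through -0.14 to 1.14 in 2008 and from -1.40 through 0.51 to 1.77 in 2009. C009R155 ran from 0.78 through 2.01 to 3.27 and from -1.98 through 0.04 to 2.33 in the summers.

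This result rests on the 8 summer fish of 2008, whose arrays lay on 6 slides with 14 other fish. Of the Strait fish in the test, 2 from summer 2009 and 0 from fall 2008 shared those slides. Among the 8, fish 516, 552 and 576 had means over members of -1.10, -0.94 and -1.06. The others ran from -0.42 to -0.08. The arrays of fish 516, 552 and 576 had SDs 0.42, 0.30 and 0.34 above their group means, and the others at most 0.02 above. With slide as a fixed term 0 of 100 members passed, as did 2 of all features tested. With the share of empty values and the SD of the array as terms 20 of 100 members passed. Of all features tested 1.58% then passed, in place of 25.1%. With so few slides in common, slide and year cannot be told apart in this contrast.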

How the data were processed

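Brain RNA of 206 coho salmon was measured on 2-colour arrays. The deposited table holds 1 normalized value per feature and array, read as a log2 ratio of fish over pool, and how the authors normalized it is not given in the sources used here. A second deposited table, with control spots, was not used. The files carry no counts, and the number of arrays limits the precision. Fish were grouped by the labels on season, year and place.

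Stage means, gaps and correlations were computed with Python 3.11.15 and pandas 2.3.3. Tests used R 4.3.3 and limma 3.58.1 (lmFit, duplicateCorrelation with slide as block, eBayes), with empty values left out feature by feature. A feature was tested where each level had at least 3 values, or 10 for slopes on length, and p-values were adjusted by Benjamini-Hochberg. The fits were tested on simulated data. Members, lists and tests were chosen with earlier results of these data known. The features named were, for the gap, the parr-to-smolt step, the spring-to-winter step and the spread within groups, the 2 at each end, for each test up to 2 in each direction, and those beside the limit of the rule. Gene lists and cell type markers could not be used without gene names. The alternatives tried were no slide term, slide as a fixed term, quantile normalization, features with a value on every array, array quality terms, and other forms of the rule.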

Additional observations from a re-analysis of the deposited data

Results flagged for a closer look

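In the winter fish, fish 4125 of the Strait stood apart as the lowest value of C032R093, at -1.66 where the nearest of the other 8 had 0.13, and of C046R005, at -1.27 where the nearest had 0.62. Its mean over the 100 members, -0.66, was also the lowest in winter. Of 30 groups looked at in this way, each 1 feature in 4 to 10 fish, chance gives about 1 in 20. The groups shared fish, so they were not independent, and both values came from 1 array. Without this fish, 94 of the 100 members were chosen by the rule again.

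The year difference in the Strait differed between summer and fall in 50 members (limma with slide as a random block, adjusted p under 0.05). So it did in 25.1% of all features tested, and in 2943 of the 10942 with a value on all arrays. The term was tested after the means had been seen. The interaction was 4.15 in C027R097, 3.79 in C210R115, -2.84 in C009R155 and -2.54 in C205R085. With the share of empty values and the SD of the array as terms these became 2.35, 2.13, -2.64 and -2.36, and all 4 still passed. In that fit 20 members passed in place of 50, and 1.58% of all features tested in place of 25.1%. Slide and year cannot be told apart in these values.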

How the results depend on the processing

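Of the counts of members that passed a test, and of the rule's choice, 57 recomputed values stayed within 1.5 times the value reported and 16 did not. Of the 57, 32 were counts of 0 that stayed 0 and 14 left out 1 fish from the rule, so 11 bear on stability otherwise. For coast the count of 13 members became 4 with slide as a fixed term and 20 with quantile normalization. It became 23 with only features that had a value on every array. With the share of empty values and the SD of the array as terms it became 30. The share of all features tested that passed went from 10.3% to 4.15%, 11.6%, 26.9% and 16.6% in that order. For year the count of 1 became 2 with no slide term, 0 with slide fixed, 2 with features on every array and 2 with the quality terms. The share of all features tested went from 2.65% to 4.88%, 0.0187%, 6.57% and 5.20% in that order. With quantile normalization the count for year stayed 1, against 3.29% of all features tested, but as a higher member, since C262R082 no longer passed. For length in fall the count of 0 became 1 with no slide term, 1 with features on every array and 3 with the quality terms. For the year change in summer against fall the count of 50 became 0 with slide fixed and 20 with the quality terms. The share of all features tested went from 25.1% to 0.00807% and 1.58%. With quality terms the coast count was 20 higher and 10 lower, against 3 and 10 as reported. The causes of these shifts were not tested. Among the values of named features, 36 kept direction and side of the threshold, 9 kept direction but no longer passed, and 0 reversed. Slide as a fixed term gave 8 of these 9, at 0.34 for C063R026, 0.24 for C204R164, -0.66 for C017R040, -0.14 for C262R082, 1.69 for C027R097, 1.77 for C210R115, -1.36 for C009R155 in year by season and -0.95 for C205R085. Quantile normalization gave the ninth, C262R082 at -0.59.

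The rule chose 59 of the 100 members again from stage medians, 46 from the fish of 2009 alone and 51 from wild fish alone. It chose between 68 and 88 under the other 6 forms tried, where the 68 were chosen out of 18105 features. The gap stayed above 0 in 99, 87 and 98 members from stage medians, fish of 2009 and wild fish, and in 100 under the other 6. The members were chosen on these fish, so nothing is read from those counts. Neither the fish of 2009 nor the wild fish included parr, so smolts alone stood for the rivers there. Leaving out 1 parr at a time it chose 96 to 98 again, and leaving out 1 winter fish at a time 94 to 99. No paired analysis was possible because the fish numbers are not shared between groups, and slide served as the block instead. Empty values, 34.5% of the table, limited the rule to features measured on every array, which leaves out any feature that was empty in even 1 fish.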
